A study of Mus musculus with 12 samples.

Results

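The 10 genes described here encode the machinery with which cone photoreceptors turn light into an electrical signal: the opsins Opn1sw and Opn1mw, the transducin subunits Gnat2, Gnb3 and Gngt2, the phosphodiesterase subunits Pde6c and Pde6h, the channel subunits Cnga3 and Cngb3, and the arrestin Arr3. They were picked by gene symbol, not by their values, from the 52962 genes of the deposited gene table, and all 10 were found. All values come from mouse rods, the photoreceptors of dim light, not from cones. Electroporation had put plasmids into the retina, and at postnatal day 8 undamaged rods with GFP were picked one by one, 50 to 100 per library. There were 4 groups of 3 libraries. The shRNA mCsnk2a1 group received a short hairpin RNA against mouse Csnk2a1, the gene of the catalytic alpha subunit of protein kinase CK2, and the shRNA Control group its control. The pcDNA4c mCsnk2a1 group received the expression vector pcDNA4c with mouse Csnk2a1, and the pcDNA4c Control group pcDNA4c as control. Electroporation, the GFP label and picking were common to all 4 groups. The libraries of a group are described as independent RNA samples. Strain, the promoters of the plasmids and whether the samples came from separate animals are not given, so the p-values measure spread among RNA samples, part of which may be technical. The title of the study asks how protein kinase CK2 affects expression that depends on NRL, a transcription factor of rods.

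In a cone, light turns an opsin into an active receptor, which switches on transducin, a G protein of 1 alpha, 1 beta and 1 gamma subunit. Transducin then relieves phosphodiesterase of its inhibitory subunit, cyclic GMP is broken down, cyclic-nucleotide-gated channels close, and arrestin ends the signal by binding the opsin. Rods run the same cascade with their own set of genes (among them Gnat1, Gnb1, Gngt1, Pde6a, Pde6b, Pde6g, Cnga1, Cngb1 and Sag), and the transcription factors NRL and NR2E3 are known to keep cone genes low in rods. Gnb3 is known from both cones and ON bipolar cells.

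Libraries held 1608926 to 3567121 estimated counts, and were deeper with Csnk2a1 constructs (2296056 to 3567121) than with controls (1608926 to 2017623). Yet 5 of those 6 libraries held counts for fewer genes than any control library of their arm: 17566 to 20682 in shRNA mCsnk2a1 against 20352 to 22146 in its control, and 16164 to 18782 in pcDNA4c mCsnk2a1 against 22688 to 25326. The mitochondrial share of counts was higher without overlap in both arms. It was 10.1% to 11.4% in shRNA mCsnk2a1 against 8.26% to 8.69%, and 9.54% to 12.8% in pcDNA4c mCsnk2a1 against 7.31% to 8.64%. Csnk2a1 itself lay at 12.0 to 36.0 CPM (counts relative to the library total, after scaling by the TMM factors of edgeR) in shRNA mCsnk2a1 and at 8.51 to 66.9 CPM in shRNA Control (log2 fold change -0.92, SE 0.88; adjusted p = 0.905 in edgeR). It lay at 49.9 to 145 CPM in pcDNA4c mCsnk2a1 and at 25.0 to 86.6 CPM in pcDNA4c Control (log2 fold change 1.18, SE 0.88; adjusted p = 0.801 in edgeR). Both pairs of groups overlapped, so knockdown and overexpression below name what each construct is meant to do. All 10 rod genes had counts in all 12 libraries.

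Most cone phototransduction genes were near the limit of detection in these rods, and only Gnb3, Gngt2 and Pde6h had a count in every library. Cngb3 was counted in 11 libraries, Cnga3 in 10, Pde6c in 9, Arr3 and Gnat2 in 8, Opn1sw in 6 and Opn1mw in 3. Each pcDNA4c mCsnk2a1 library had counts for 5 of the 10 genes, against 9, 10 and 8 in pcDNA4c Control. The shRNA mCsnk2a1 libraries had 9, 10 and 8, and shRNA Control 8, 6 and 8. The lower number in pcDNA4c mCsnk2a1 went with the lower number of genes of all kinds counted there, and the part of the latter was not tested. In the shRNA arm the order was the other way round, with as many or more of these genes under knockdown and, in 2 of its 3 libraries, fewer genes of all kinds than in any control library. A count of 1 was worth 0.308 to 0.595 CPM, depending on the library. In RNA from pools of picked cells, fewer cells with a transcript and less of it per cell cannot be told apart.

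**Figure D1:**
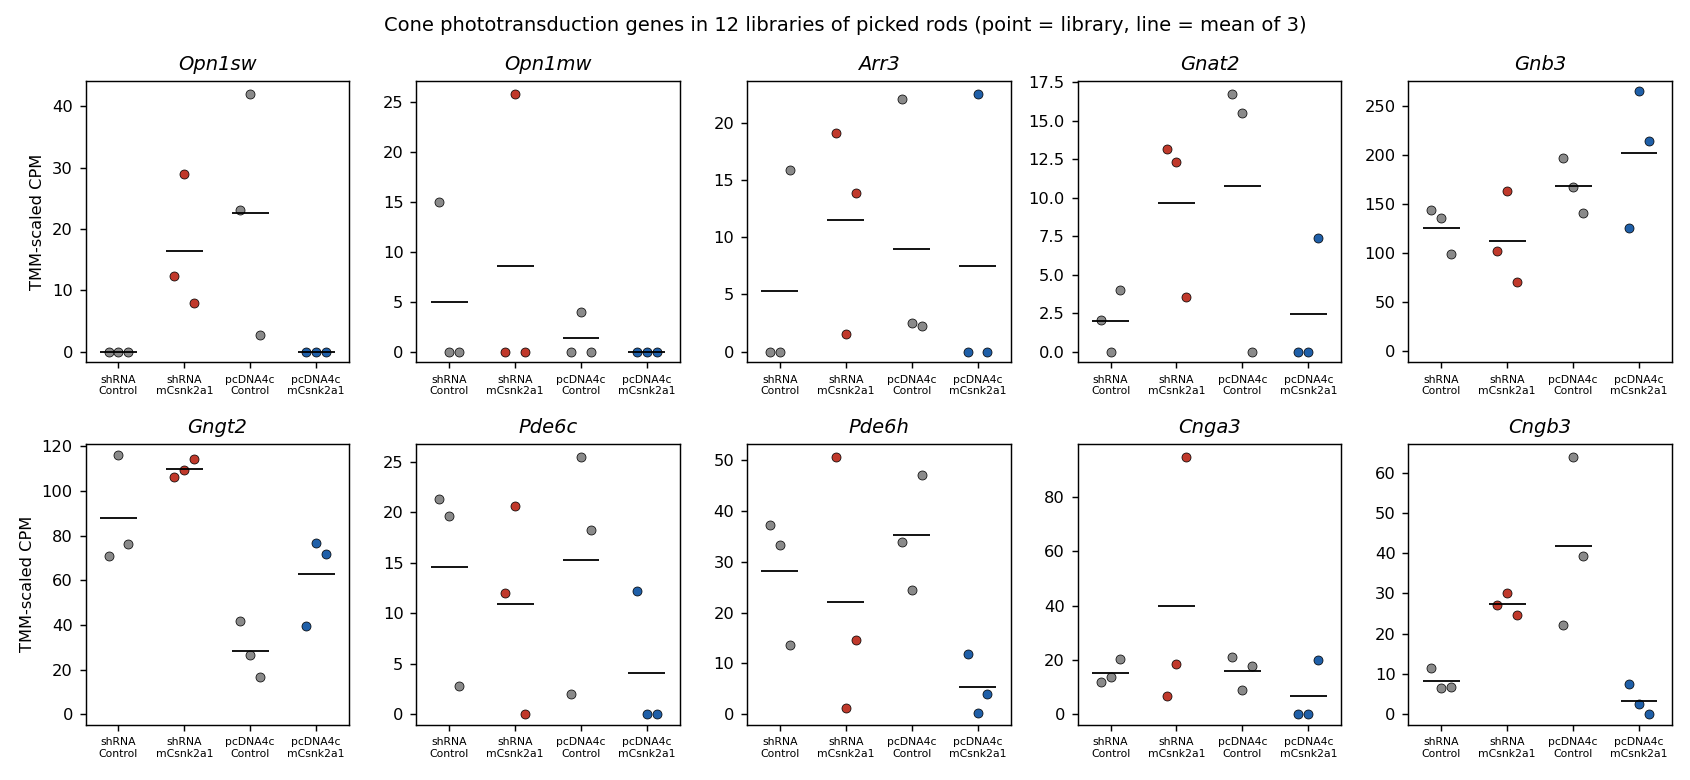
TMM-scaled CPM (vertical axis, linear, a different range in each panel) of the 10 cone phototransduction genes in each of 12 libraries by group; a point is a library and a line the mean of 3. Opn1sw is at 0 in all libraries of shRNA Control and pcDNA4c mCsnk2a1, and only Gnb3 and Gngt2 stay at or above 16.6 CPM everywhere.

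Counts of the short-wavelength opsin were found in all libraries of a group or in none. Opn1sw (ENSMUSG00000058831, chromosome 6, 29376671 to 29388468, GRCm38) was at 12.4, 28.9 and 7.84 CPM in shRNA mCsnk2a1, from 33, 94 and 22 counts. In pcDNA4c Control it was at 23.1, 42.0 and 2.77 CPM, from 47, 84 and 5 counts. It had no count in any library of shRNA Control or of pcDNA4c mCsnk2a1, which allows up to 0.559 CPM and 0.355 CPM over those groups (3 counts each, counting error only). The groups that carried the transcript were thus the knockdown libraries in one arm and the control libraries in the other. Folds set the pooled CPM of a group, its counts over its summed library size, against a floor of 3 counts over the empty group. On that scale Opn1sw was at least 30.6-fold higher with knockdown (edgeR adjusted p = 0.598, unadjusted p = 0.00629). It was at least 65.7-fold lower with overexpression (edgeR adjusted p = 0.519, unadjusted p = 0.00345). The spread among libraries, down to 2.77 CPM in pcDNA4c Control, does not enter these bounds. DESeq2 gave adjusted p values of 0.0637 and 0.0142 for the same 2 comparisons, so the overexpression difference passed with that tool only. The control groups of the 2 arms also differed without overlap: with shRNA Control pooled Opn1sw was at least 41.7-fold lower (edgeR adjusted p = 1, DESeq2 0.0837). For each of these 3 contrasts the two-sided exact permutation test of 3 against 3 libraries gave p = 0.1, the smallest it allows.

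Part of Opn1sw lies opposite another gene. Of its 2557 exonic bases, 397 (15.5%) are shared with exons of Calu on the other strand, all in the full-length transcript Opn1sw-201, and the sources used here do not say whether the counting used strand, so reads from those bases cannot be assigned with certainty. Calu had counts in all 12 libraries, at 1.56 to 37.5 CPM in shRNA Control and 14.4 to 80.6 CPM in pcDNA4c mCsnk2a1, where Opn1sw had none. It was at 52.9 to 116 CPM in shRNA mCsnk2a1 and 47.7 to 93.6 CPM in pcDNA4c Control. Like Opn1sw it was thus higher without overlap with knockdown (1.93, SE 0.96; adjusted p = 0.601 in edgeR) and lower without overlap in shRNA Control than with pcDNA4c alone (-1.71, SE 0.95; adjusted p = 1 in edgeR), while the overexpression groups overlapped (-0.32, SE 0.92). The part of Calu reads in the Opn1sw counts was not tested. In pcDNA4c Control 2 the Opn1sw signal lay almost wholly on Opn1sw-204 (9.14 TPM, the length-corrected unit of the transcript table), which shares no base with Calu. In the other 5 libraries with Opn1sw most of it lay on Opn1sw-201.

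The middle-wavelength opsin Opn1mw (ENSMUSG00000031394, chromosome X, 74127464 to 74150760) appeared in single libraries. It had 84 counts (25.8 CPM) in shRNA mCsnk2a1 2, 29 counts in shRNA Control 1 and 8 counts (4.00 CPM) in pcDNA4c Control 2, and 0 in the other 9, which include all 3 of pcDNA4c mCsnk2a1. It did not pass the filter on low counts and was not tested. The library richest in it, shRNA mCsnk2a1 2, was also the richest of its group in Opn1sw, and likewise pcDNA4c Control 2. In shRNA Control 1, with its 29 counts of Opn1mw, Opn1sw had no count.

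The start of Opn1sw and that of Arr3 are shown because these genes had counts in some libraries and none in others, and because both carry the core letters of the site read by CRX and OTX2, homeobox factors of photoreceptors. Each line gives the 250 bases before the RefSeq gene start (GRCm38.p6), 5′ to 3′ on the gene's strand, with TAATC in capitals; Opn1sw is chr6:29380514-29380763 on the minus strand, inside the annotated span of the gene but without exonic bases, and Arr3 is chrX:100605247-100605496 on the plus strand.
Opn1sw: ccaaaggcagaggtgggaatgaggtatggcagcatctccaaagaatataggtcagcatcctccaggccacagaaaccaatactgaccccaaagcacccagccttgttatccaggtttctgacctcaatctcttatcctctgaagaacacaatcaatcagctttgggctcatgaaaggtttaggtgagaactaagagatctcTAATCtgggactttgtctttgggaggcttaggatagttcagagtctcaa
Arr3: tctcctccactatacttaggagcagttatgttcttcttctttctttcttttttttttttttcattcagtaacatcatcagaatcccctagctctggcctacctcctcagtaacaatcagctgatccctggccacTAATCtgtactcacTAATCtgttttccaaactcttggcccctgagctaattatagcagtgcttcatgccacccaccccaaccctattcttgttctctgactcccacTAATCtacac
The first base of the core lies 49 bases before the start in Opn1sw, and 116, 102 and 10 bases before it in Arr3. TAATC or its reverse GATTA was found in 6519 of 32851 promoter windows of this length (19.8%), and the longer TAATCC or GGATTA, of which TAATC is a part, in 2054 (6.25%). Windows were at hand for 6 of the cone genes (Opn1sw, Opn1mw, Arr3, Gnat2, Pde6h and Cnga3), and besides Opn1sw and Arr3 that of Gnat2 held the core, 18 bases before its start and on the other strand, as part of the longer GGATTA. The Gnat2 window is not shown because it overlaps annotated exons. The search was chosen after the counts had been seen, and a match of letters is a description of the sequence only.

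Of the transducin subunits, the beta and gamma had the highest mean TPM of the 10 genes in every group, and the alpha was scarce. Gnat2, the cone transducin alpha subunit (ENSMUSG00000009108, chromosome 3, 108092789 to 108101432), was at 13.1, 12.3 and 3.57 CPM in shRNA mCsnk2a1 and at 2.07, 0 and 3.97 CPM in shRNA Control. It was at 0, 0 and 7.38 CPM in pcDNA4c mCsnk2a1 and at 16.7, 15.5 and 0 CPM in pcDNA4c Control. Both pairs of groups overlapped: shRNA mCsnk2a1 3 lay just below shRNA Control 3, and pcDNA4c Control 3 had no count while pcDNA4c mCsnk2a1 3 did. The log2 differences were 2.23 (SE 2.41, edgeR adjusted p = 0.939) with knockdown and -2.10 (SE 2.39, edgeR adjusted p = 0.941) with overexpression.

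Gnb3, the beta subunit (ENSMUSG00000023439, chromosome 6, 124834240 to 124840275), was at 103, 163 and 70.6 CPM in shRNA mCsnk2a1 and at 144, 136 and 98.7 CPM in shRNA Control. In pcDNA4c mCsnk2a1 it was at 126, 265 and 214 CPM, and in pcDNA4c Control at 197, 167 and 141 CPM. Ranges overlapped widely in both arms. The differences were -0.17 (SE 0.51; 95% interval -1.17 to 0.83; edgeR adjusted p = 1) and 0.26 (SE 0.51; 95% interval -0.74 to 1.26; edgeR adjusted p = 0.992), the narrowest intervals among the cone genes. Gnb3 is also a gene of ON bipolar cells, and 8 markers of those cells summed to 412 to 595 CPM in shRNA Control, 699 to 1886 in shRNA mCsnk2a1, 145 to 258 in pcDNA4c Control and 746 to 888 in pcDNA4c mCsnk2a1. In both arms these sums did not overlap and were higher with the Csnk2a1 construct, while Gnb3 overlapped in both. The part of such cells in the Gnb3 level was not tested.

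Gngt2, the gamma subunit (ENSMUSG00000038811, chromosome 11, 95837216 to 95845734), was even across the knockdown libraries, at 106, 109 and 114 CPM, beside 71.0, 116 and 76.0 CPM in shRNA Control. It was at 39.4, 76.8 and 71.8 CPM in pcDNA4c mCsnk2a1 and at 41.8, 26.5 and 16.6 CPM in pcDNA4c Control. Both arms overlapped: shRNA Control 2 lay above the knockdown libraries, and pcDNA4c mCsnk2a1 1 just below pcDNA4c Control 1. The differences were 0.32 with knockdown (SE 0.65, edgeR adjusted p = 0.999) and 1.14 with overexpression (SE 0.66, edgeR adjusted p = 0.625). Between the control groups Gngt2 was higher in all 3 shRNA Control libraries than in any pcDNA4c Control library (1.63, SE 0.66, edgeR adjusted p = 1, unadjusted p = 0.024). Of its exonic bases 234 face the gene Abi3 on the other strand, and Abi3 had 99 counts in the 12 libraries together, against 2141 for Gngt2.

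Cone phosphodiesterase was low in all groups. Pde6c, the catalytic subunit (ENSMUSG00000024992, chromosome 19, 38132781 to 38183958), was at 12.0, 20.6 and 0 CPM in shRNA mCsnk2a1 and at 21.3, 19.6 and 2.84 CPM in shRNA Control. It was counted in 1 of 3 pcDNA4c mCsnk2a1 libraries (12.2 CPM) and lay at 1.97, 25.5 and 18.3 CPM in pcDNA4c Control. Both arms overlapped. The differences, -0.42 (SE 2.04, edgeR adjusted p = 1) and -1.90 (SE 2.11, edgeR adjusted p = 0.938), were smaller than their errors. Pde6h, the inhibitory gamma subunit (ENSMUSG00000064330, chromosome 6, 136923832 to 136968865), was at 50.7, 1.23 and 14.6 CPM in shRNA mCsnk2a1 and at 37.3, 33.3 and 13.6 CPM in shRNA Control. In pcDNA4c mCsnk2a1 it was at 11.8, 0.313 and 4.03 CPM, below all pcDNA4c Control libraries at 33.9, 24.5 and 47.1 CPM. The 3 knockdown libraries thus spanned the widest range of Pde6h, and in the other arm the groups did not overlap. The differences were -0.34 (SE 1.35, edgeR adjusted p = 1) and -2.70 (SE 1.44, edgeR adjusted p = 0.596, unadjusted p = 0.0754). Pde6h shares 136 of its 7846 exonic bases with Arhgdib on the other strand, all in Pde6h-204. Arhgdib had 0 counts in pcDNA4c mCsnk2a1 and 17 in pcDNA4c Control, against 40 and 203 for Pde6h. In the shRNA arm it had 55 with knockdown and 9 in the control. The part of Arhgdib reads in the Pde6h counts was not tested.

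The channel subunits differed from each other in how even they were. Cngb3, the modulatory beta subunit (ENSMUSG00000056494, chromosome 4, 19280850 to 19510623), was at 27.0, 30.2 and 24.6 CPM in shRNA mCsnk2a1 and at 11.4, 6.55 and 6.81 CPM in shRNA Control. It was at 7.44, 2.51 and 0 CPM in pcDNA4c mCsnk2a1 and at 22.1, 64.0 and 39.3 CPM in pcDNA4c Control. Groups did not overlap in either arm, and the order was that of Opn1sw: high with the knockdown construct and in pcDNA4c Control, low in the other groups. The log2 difference was 1.72 with knockdown (SE 1.36, edgeR adjusted p = 0.842) and -3.65 with overexpression (SE 1.47, edgeR adjusted p = 0.568, unadjusted p = 0.0229). Each arm gave an exact permutation p of 0.1 (two-sided, 3 against 3 libraries), the smallest possible. Shallow counts stood behind these values, 239 and 45 in all over the shRNA groups, 25 and 244 over the pcDNA4c groups.

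Cnga3, the pore-forming alpha subunit (ENSMUSG00000026114, chromosome 1, 37214434 to 37263384), was at 6.76, 18.5 and 94.8 CPM in shRNA mCsnk2a1 and at 11.9, 13.7 and 20.4 CPM in shRNA Control. In pcDNA4c mCsnk2a1 it was at 0, 0 and 19.8 CPM, and in pcDNA4c Control at 21.2, 9.00 and 17.7 CPM. The value of 94.8 CPM in shRNA mCsnk2a1 3 is the highest of Cnga3 in any library, and the knockdown difference of 1.38 (SE 1.66, edgeR adjusted p = 0.960) turned to -0.28 without that library. With overexpression Cnga3 differed by -1.26 (SE 1.66; adjusted p = 0.965 in edgeR), and the groups overlapped through pcDNA4c mCsnk2a1 3.

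Arr3, cone arrestin (ENSMUSG00000060890, chromosome X, 100605497 to 100618493), showed scattered counts in every group. It was at 19.2, 1.54 and 13.9 CPM in shRNA mCsnk2a1 and at 0, 0 and 15.9 CPM in shRNA Control. It was at 0, 22.6 and 0 CPM in pcDNA4c mCsnk2a1 and at 22.1, 2.50 and 2.22 CPM in pcDNA4c Control. Groups overlapped in both arms, and the 72 counts of pcDNA4c mCsnk2a1 all came from 1 library. The differences were 1.12 (SE 2.36, edgeR adjusted p = 0.999) and -0.25 (SE 2.33, edgeR adjusted p = 1). The second was 1.65 without pcDNA4c Control 1 and -7.35 without pcDNA4c mCsnk2a1 2.

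Counts of different genes can be compared only per transcript length, and for this the deposited TPM values were summed over each gene's transcripts. On that scale Gngt2 averaged 87.0 TPM over the 12 libraries (SD 46.2) and Gnb3 46.0 TPM (SD 16.9). Arr3 came next at 5.12 TPM (SD 5.91), then Cnga3 at 3.14 (SD 3.87), Gnat2 at 2.71 (SD 2.63), Opn1mw at 2.62 (SD 5.76), Opn1sw at 2.32 (SD 3.30), Pde6c at 2.12 (SD 1.89), Pde6h at 1.83 (SD 1.42) and Cngb3 at 1.81 (SD 1.46). Differences among the last 8, at 1.81 to 5.12 TPM, were not tested, and each SD spans all 4 groups. Gngt2 and Gnb3 together held 68.2% to 95.5% of the summed TPM of the 10 genes, lowest in pcDNA4c Control 2 and highest in pcDNA4c mCsnk2a1 1.

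The rod counterpart was higher than the cone gene in 12 of 12 libraries for the 8 pairs described here. Among these pairs the ratio of mean TPM was smallest for the abundant cone genes: 3.61 for Gngt1 over Gngt2 and 7.12 for Gnb1 over Gnb3. It was 12.6 for Cnga1 over Cnga3, 18.8 for Gnat1 over Gnat2, 43.6 for Cngb1 over Cngb3 and 58.9 for Pde6b over Pde6c. The widest gaps were 96.3 for Pde6g over Pde6h and 119 for Sag over Arr3. Of these 8 pairs, arrestin and the inhibitory subunit thus stood farthest below their rod form in TPM. This order depends on the transcript lengths assigned, which for Pde6h run from 211 (Pde6h-203) to 5940 bases (Pde6h-202). In CPM, without length correction, group means were 5.38 to 35.2 for Pde6h and 230 to 393 for Pde6g. For Pde6c they were 4.08 to 15.2 and for Pde6b 512 to 913, a wider gap than for Pde6h.

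**Figure D2:**
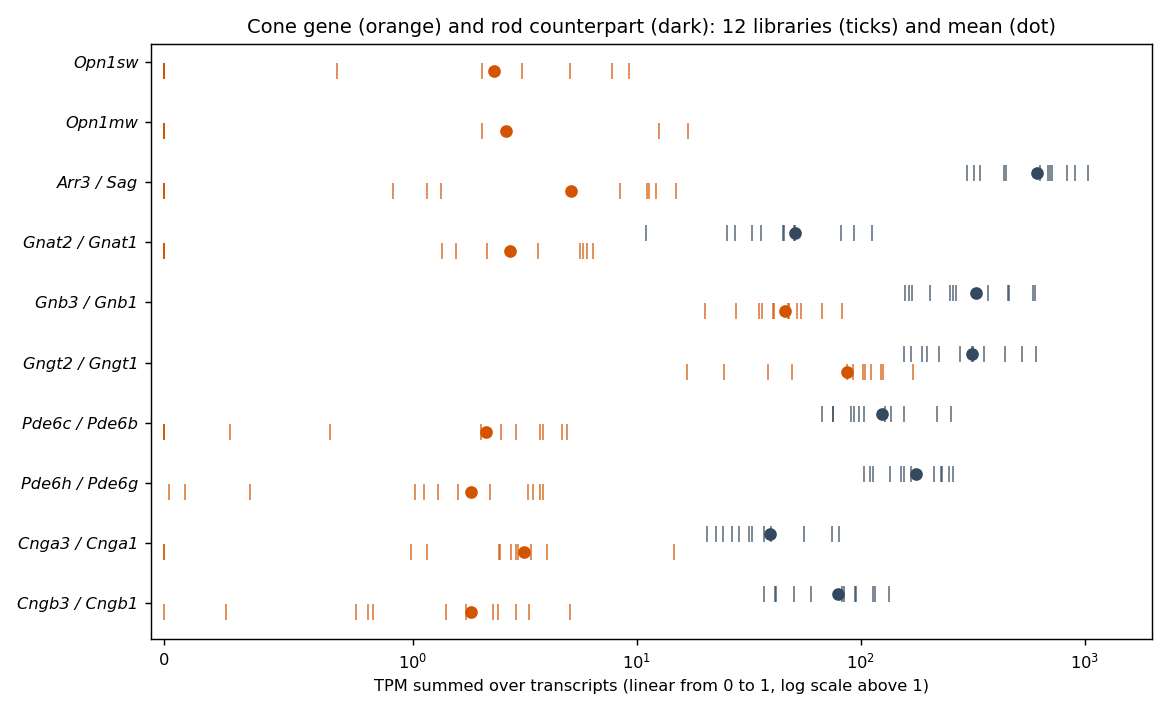
TPM summed over transcripts (horizontal axis, linear from 0 to 1 and logarithmic above 1) for the 10 cone genes in orange and the rod counterpart of 8 of them in dark blue; ticks are the 12 libraries and dots their mean. The rod mean lies to the right of the cone mean in each pair, with the smallest gap for Gngt2 at a mean of 87.0 TPM beside Gngt1.

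The 10 cone genes summed to 5.95% ± 0.253 of the TPM of the 10 rod genes in shRNA mCsnk2a1, 10.4% ± 2.70 in shRNA Control, 6.56% ± 0.704 in pcDNA4c mCsnk2a1 and 8.31% ± 2.26 in pcDNA4c Control (SD, n = 3). The knockdown libraries (5.68% to 6.18%) lay below their controls (7.81% to 13.2%), while those of the other arm overlapped. Without Gnb3, Gngt2 and their rod forms the share was 1.45% to 1.61% with knockdown and 0.956% to 1.95% in its control, and 0.557% (0.395% to 0.807%) with overexpression beside 3.11% (1.97% to 4.10%) in its control. In TPM the knockdown libraries thus stood apart from their controls with the beta and gamma pairs included, and the overexpression libraries without them. In CPM, with all 10 genes, both arms were lower without overlap: 3.08% to 3.34% with knockdown beside 4.86% to 6.67%, and 3.30% to 4.49% with overexpression beside 6.93% to 8.40%.

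The transcripts behind these sums were not all coding. Of the Arr3 TPM summed over libraries, 93.1% lay on transcripts annotated as retained introns, 65.0% on Arr3-204 and 24.3% on Arr3-203, and 6.93% on coding transcripts. For Sag, the rod arrestin, 93.2% was coding. Opn1mw had 53.6% on transcripts annotated as processed and without a coding frame, nearly all from Opn1mw-206 in shRNA mCsnk2a1 2. Gnb3 had 28.1% on retained introns and 71.6% on its coding transcript Gnb3-201, beside 36.9% and 63.1% for Gnb1. Pde6h had 14.4% on a retained intron, and Gnat2 17.9% on a processed transcript.

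Coding signal came from full-length and from short forms. Cngb3 has 1 annotated transcript, of 4708 bases, which was above 0 in 11 libraries, and Pde6c was read only from Pde6c-201. The full-length Gnat2-201 was above 0 in just 2 libraries, shRNA Control 3 and pcDNA4c Control 2, and the other Gnat2 signal lay on shorter forms. In shRNA mCsnk2a1 3, the library with the most Cnga3, 12.8 TPM lay on the short Cnga3-202 of 651 bases and 1.97 TPM on the long Cnga3-201 of 3554 bases. Its long form was thus within the range of the control libraries, 0.688 to 3.97 TPM in shRNA Control. With so few fragments, the split of a gene among its transcripts is an estimate of the authors' quantification and no error is given with it.

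**Figure D3:**
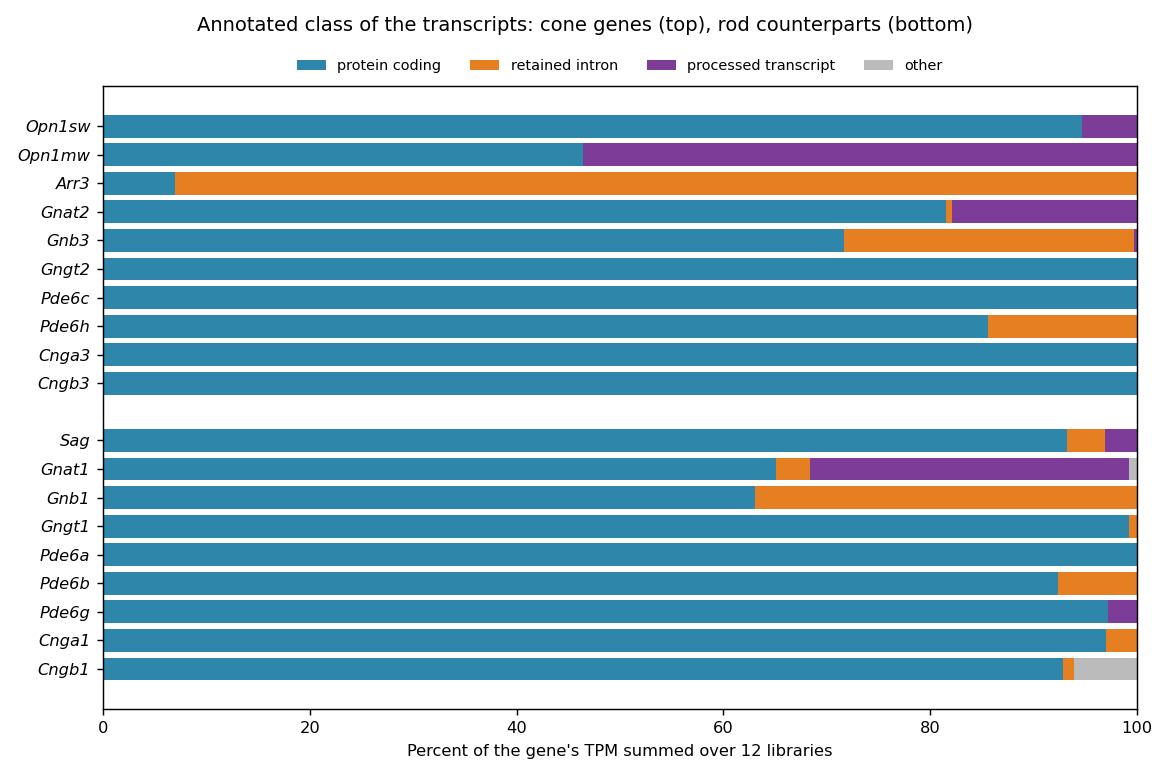
Percent of each gene's TPM, summed over 12 libraries, on transcripts of each annotated class (horizontal stacked bars from 0 to 100), for the 10 cone genes above and 9 rod genes below. Arr3 stands out with 93.1% on retained introns, where its rod form Sag has 93.2% on coding transcripts.

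Read together, 9 of the 10 cone genes passed the filter on low counts (Opn1mw did not), and genes that pass because 1 group is high tend to differ between groups, so the following counts are a description. With knockdown 0 of the 9 passed at an edgeR adjusted p under 0.05, where 0% of all 20267 genes tested passed. At an unadjusted p under 0.05 there was 1 (Opn1sw), with 8.33% of all genes, and DESeq2 and limma voom each called 0 of them, with 0.903% and 0.00987% of all genes. Fold changes were above 0 for 6 of 9, with 48.9% of all genes, and 2 of 9 (Opn1sw and Cngb3) were higher without overlap, with 5.61% of all genes. None was lower without overlap, with 6.68% of all genes. Their median log2 difference was 1.12, beside -0.03 for all genes. The summed level of the 10 was 350, 412 and 344 CPM with knockdown and 314, 325 and 238 CPM in the control, a log2 ratio of 0.33 that was -0.059 in TPM.

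With overexpression again 0 of 9 passed, where edgeR called 0.0987% of all genes (20 genes; 0.0641% higher and 0.0345% lower). At an unadjusted p under 0.05 there were 2, Opn1sw and Cngb3, both lower, with 8.73% of all genes in either direction; DESeq2 called 1 (Opn1sw; 1.25% of all genes) and limma voom 0 (0.183%). Fold changes were below 0 for 7 of 9; above 0 were Gnb3 and Gngt2, with 45.1% of all genes above 0. Lower without overlap were 3 of 9 (Opn1sw, Cngb3 and Pde6h), with 11.8% of all genes, and 0 were higher without overlap, with 3.73%. The median was -1.90, beside -0.16 for all genes. Summed levels were 196, 367 and 318 CPM with overexpression and 380, 381 and 285 CPM in its control, a log2 ratio of -0.25, and these groups overlapped. In TPM the ratio had the other sign, 0.68, with 94.2 to 190 TPM beside 66.7 to 116 TPM.

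The sum hides a split within the family, since Gnb3 and Gngt2 held most of it. Without these 2 genes, left out after their values were seen and so without a test, the other 8 summed to 141, 139 and 159 CPM with knockdown and 99.0, 73.2 and 63.5 CPM in shRNA Control. They summed to 31.5, 25.4 and 31.2 CPM with overexpression and 141, 187 and 127 CPM in pcDNA4c Control. Neither arm overlapped, and the 3 overexpression libraries were the lowest of all 12. The knockdown arm rests on Cnga3 in shRNA mCsnk2a1 3: without Cnga3 the remaining 7 summed to 64.5 to 134 CPM with knockdown and 43.1 to 87.1 CPM in its control, which overlap, and to 11.4 to 31.5 CPM with overexpression beside 110 to 178 CPM, which do not. Gnb3 and Gngt2 together overlapped in both arms, at 165 to 342 CPM with overexpression and 157 to 239 CPM in its control.

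**Figure D4:**
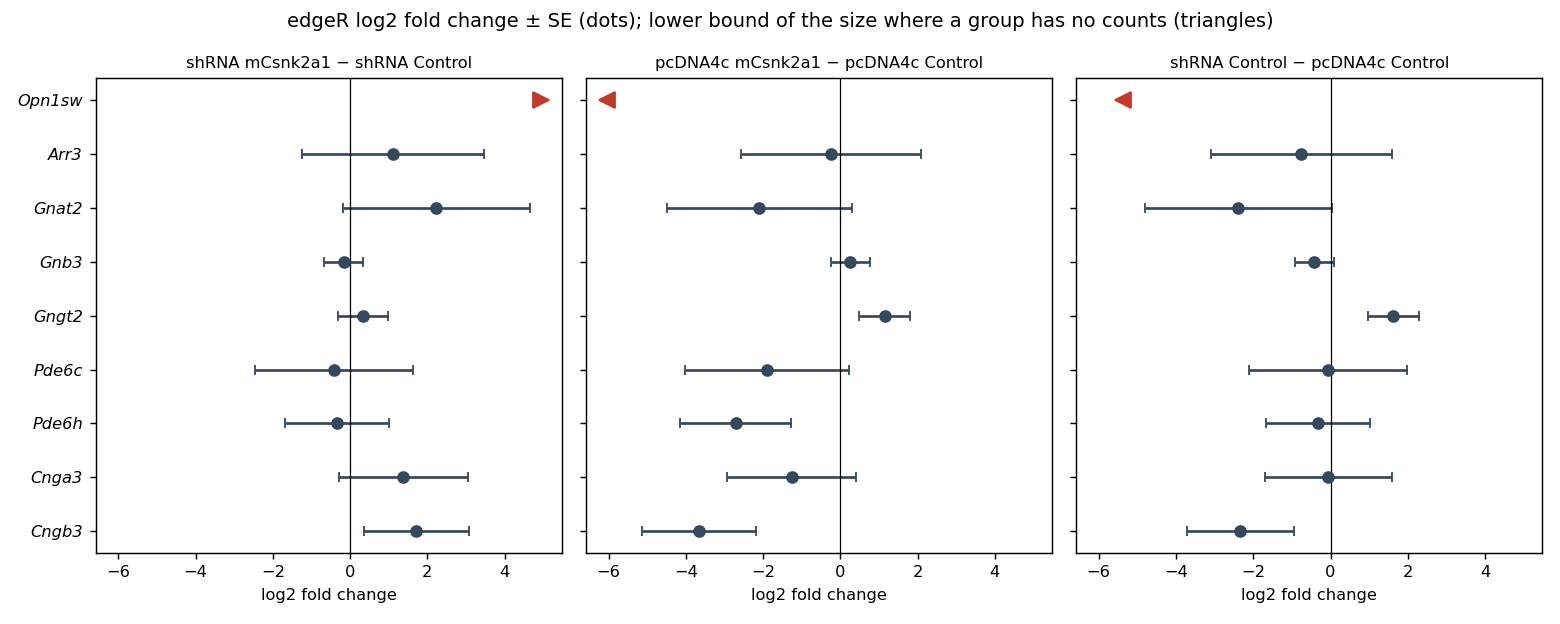
Log2 fold change (horizontal axis) of the 9 cone genes tested, for knockdown, overexpression and the 2 control groups; dots are edgeR estimates, bars ± 1 SE, and triangles mark the lower bound of the size of the pooled Opn1sw fold where a group has no count. The bound leaves out the spread among libraries. No gene passed at an adjusted p under 0.05, and Gnb3 has the shortest bars, at -0.17 ± 0.51 and 0.26 ± 0.51 in the first 2 panels.

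The difference between the arms was tested in the same fit. For the overexpression effect minus the knockdown effect 0 of 9 passed edgeR, where 0.0197% of all genes passed (4 genes). Opn1sw (edgeR unadjusted p = 2.86e-04, adjusted p = 0.305) and Cngb3 (-5.37, SE 2.00, edgeR unadjusted p = 0.0147, adjusted p = 0.493) were under 0.05 before adjustment, as were 8.34% of all genes. DESeq2 called Opn1sw (adjusted p = 1.94e-04) but not Cngb3 (0.0985), and limma voom called neither, with 1.03% and 0.00493% of all genes called. The sizes for the other genes were -4.33 for Gnat2 (SE 3.39), -2.64 for Cnga3 (SE 2.35), -2.36 for Pde6h (SE 1.93), -1.48 for Pde6c (SE 2.90), -1.36 for Arr3 (SE 3.31), 0.43 for Gnb3 (SE 0.72) and 0.82 for Gngt2 (SE 0.91).

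The 2 control groups differed from each other for some of the same genes. For shRNA Control minus pcDNA4c Control edgeR called 0 of 9, and 0.0691% of all genes (14 genes; 0.0148% higher and 0.0543% lower). DESeq2 and limma voom each called 0 of 9, with 0.34% and 0.0592% of all genes. At an unadjusted p under 0.05 Opn1sw was lower and Gngt2 higher, with 4.21% of all genes. Lower without overlap were Opn1sw and Cngb3 (2 of 9, with 8.56% of all genes), and Gngt2 was higher without overlap (1 of 9, with 5.13%). Cngb3 differed by -2.33 (SE 1.39, edgeR adjusted p = 1), a size between those of the knockdown and overexpression differences. Gnat2 differed by -2.38 (SE 2.43), Arr3 by -0.75 (SE 2.35), Gnb3 by -0.42 (SE 0.51) and Pde6h by -0.32 (SE 1.35), while Pde6c and Cnga3, both at -0.06, were above 0 under another scaling of the libraries. Each control group also enters the contrast of its own arm, so these contrasts share libraries and are given side by side only.

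The rod counterparts, a list of 10, had a median above 0 in both arms; whether that differs from the cone genes was not tested. With knockdown all 10 were above 0 (48.9% of all genes), with a median of 0.98, and 6 were under an unadjusted p of 0.05 (8.33% of all genes). None passed edgeR (0% of all genes), and DESeq2 called 1 (0.903% of all genes). Gnat1, the rod transducin alpha subunit, differed by 1.73 (SE 0.49), the phosphodiesterase subunit Pde6a by 1.43 (SE 0.59), Gngt1 by 1.18 (SE 0.33), Sag, the rod arrestin, by 1.04 (SE 0.29) and Gnb1, the rod transducin beta subunit, by 0.89 (SE 0.35), each with an adjusted p = 0.598 in edgeR. Sag was at 3368 ± 303 CPM with knockdown and 1639 ± 330 CPM in the control (SD, n = 3). With overexpression 9 of 10 were above 0 (45.1% of all genes), with a median of 0.63. Again 0 passed edgeR (0.0987% of all genes), 3 were under 0.05 before adjustment (8.73% of all genes) and DESeq2 called 1 (1.25%). Gnb1 differed by 1.20 (SE 0.36; adjusted p = 0.514 in edgeR) and the channel subunit Cnga1 by 1.03 (SE 0.47; adjusted p = 0.568 in edgeR). Limma voom called 0 in both arms, with 0.00987% of all genes for knockdown and 0.183% for overexpression. Summed rod levels were 10494 to 12764 CPM with knockdown and 4585 to 6460 CPM in its control, without overlap, and 4377 to 9613 CPM with overexpression beside 4109 to 5313 CPM.

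Components found in both kinds of photoreceptor or in either, such as the opsin kinase Grk1, the GTPase accelerator Rgs9 with Gnb5 and Rgs9bp, recoverin (Rcvrn), the guanylate cyclases Gucy2e and Gucy2f, phosducin (Pdc), the chaperone Aipl1 and the exchangers Slc24a1 and Slc24a2, formed a list of 13, of which 12 were tested. All 12 were above 0 with knockdown (48.9% of all genes), with a median of 1.12, and 9 of 12 with overexpression (45.1%), with a median of 0.38. EdgeR called 0 in either arm (0% and 0.0987% of all genes), and 5 and 0 were under an unadjusted p of 0.05 (8.33% and 8.73% of all genes). Limma voom called 0 in either arm (0.00987% and 0.183% of all genes), and DESeq2 called 1, Slc24a1 with knockdown, where it called 0.903% of all genes. This gene, the exchanger known from rods, was at 129 ± 29.9 CPM with knockdown and 17.2 ± 7.97 CPM in the control (SD, n = 3; 2.90, SE 0.77, edgeR adjusted p = 0.598, DESeq2 0.00834). Guca1a and Guca1b, the cyclase activators, have a further copy in the table and their counts are uncertain.

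Markers of other cells differed between the groups too. A list of 7 other cone genes (Thrb, Rxrg, Sall3, Kcne2, Ccdc136, Otop3 and Clca3a2) summed to 196 to 532 CPM with knockdown beside 69.0 to 205 CPM, and to 75.5 to 133 CPM with overexpression beside 164 to 212 CPM. The overexpression groups did not overlap in that sum and the knockdown groups overlapped. EdgeR called 0 of the 6 tested in either arm, where it called 0% of all genes with knockdown and 0.0987% with overexpression. Clca3a2 had no count in pcDNA4c Control or pcDNA4c mCsnk2a1, and Kcne2 none in the latter.

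Of the ON bipolar list edgeR called 1 of 8, higher, with overexpression (0.0641% of all genes higher) and 0 with knockdown (0% of all genes). All 8 had counts in each group except Gng13, which had none in pcDNA4c Control. The 12 microglia and macrophage markers summed to 946 to 1108 CPM in pcDNA4c Control, against 36.3 to 93.0 in pcDNA4c mCsnk2a1, 58.9 to 79.4 in shRNA Control and 2.46 to 37.9 in shRNA mCsnk2a1. Of these 12, 6 had no count in pcDNA4c mCsnk2a1, 5 in shRNA Control, 7 in shRNA mCsnk2a1 and 0 in pcDNA4c Control. C1qa and Tyrobp had none in the first 3 of these groups. Cx3cr1, in contrast, had counts in all 3 libraries of each group. Its mean was 34.5 CPM in pcDNA4c mCsnk2a1, 32.4 in shRNA Control, 6.30 in shRNA mCsnk2a1 and 61.0 in pcDNA4c Control. So pcDNA4c Control, one of the 2 groups high in Opn1sw and Cngb3, was also the group high in microglial RNA, while shRNA mCsnk2a1, the other, was the lowest in it. The 8 Müller glia markers summed to 1173 to 1457 CPM in pcDNA4c Control, 963 to 1577 CPM in shRNA mCsnk2a1, 485 to 654 CPM in pcDNA4c mCsnk2a1 and 459 to 858 CPM in shRNA Control. Most of the sum in pcDNA4c Control was Apoe, at 926 to 1231 CPM. Without Apoe, left out after its values were seen, the other 7 were lowest in pcDNA4c Control, at 226 to 344 CPM, beside 377 to 535 in pcDNA4c mCsnk2a1, 343 to 723 in shRNA Control and 718 to 1165 in shRNA mCsnk2a1. No Müller marker was at 0 in any group. With overexpression edgeR called 2 of the 12 microglia markers and 1 of the 8 Müller markers, all lower (0.0345% of all genes lower). Between the controls it called 1 of each list, lower in shRNA Control (0.0543% of all genes lower). With knockdown it called 0 of either list (0% of all genes). The 7 amacrine and horizontal markers, of which Calb2 had no count in shRNA mCsnk2a1, overlapped between the groups of each arm. What part other cells had in the cone gene counts was not tested.

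**Figure D5:**
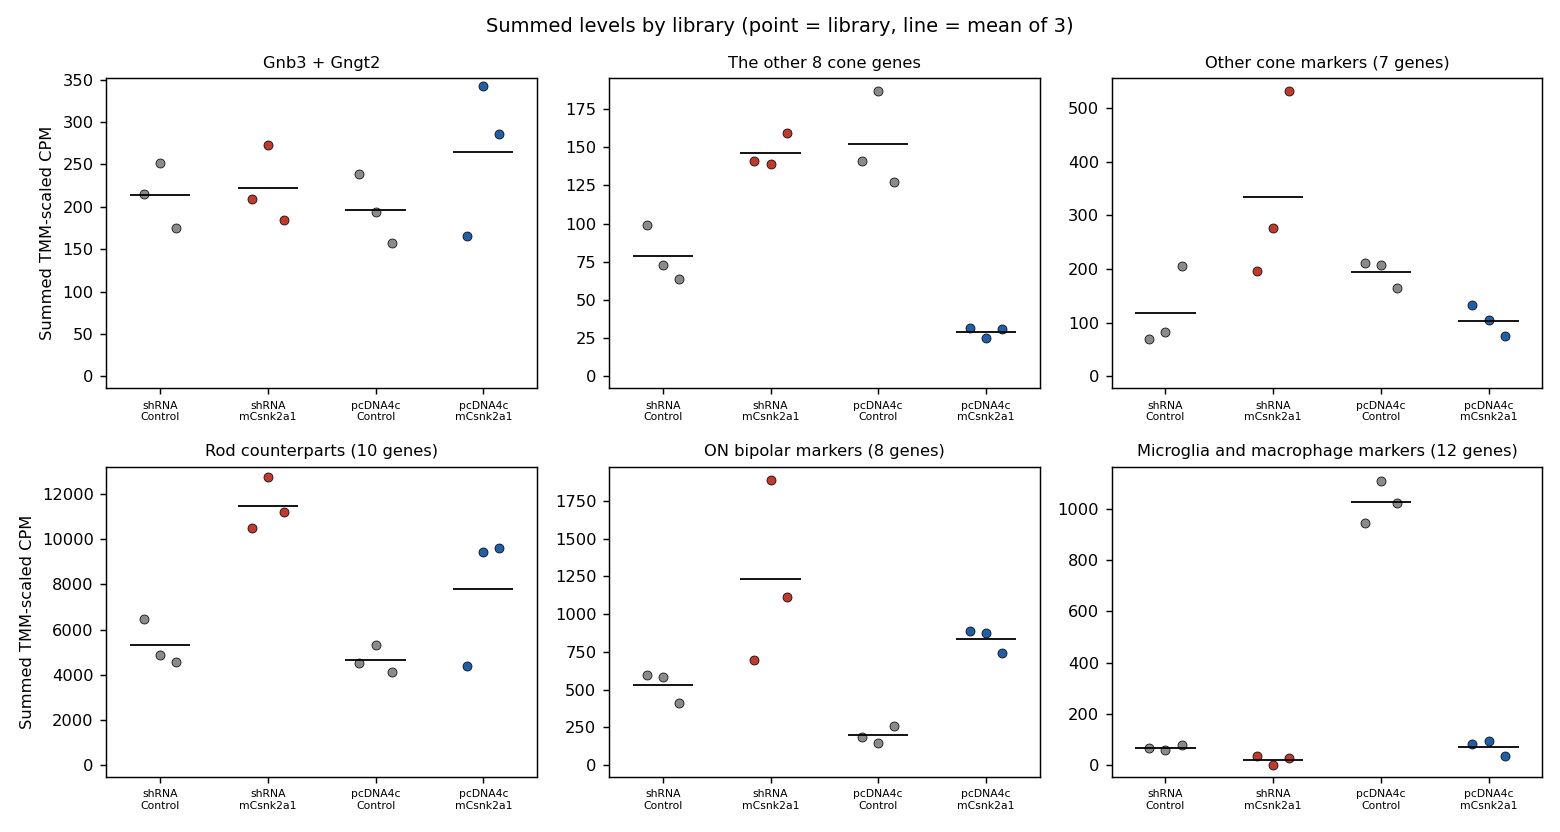
Summed TMM-scaled CPM (vertical axis, linear, a different range in each panel) of 6 gene sets by group; a point is a library and a line the mean of 3. The other 8 cone genes sit between 25.4 and 31.5 CPM in pcDNA4c mCsnk2a1, below all other libraries, and microglial markers are at 946 CPM or more in pcDNA4c Control alone.

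The cone genes differed in how closely each followed the sum of the others. The Pearson correlation of each with the sum of the other 9 over the 12 libraries, given as a description since the libraries share groups and depth, ran from 0.52 for Opn1sw and 0.48 for Gnat2 to -0.40 for Pde6h and -0.41 for Gnb3. Gnb3 and Gngt2 held 50.9% to 93.1% of the summed CPM of a library. Over the libraries these 2 genes together ran from 157 to 342 CPM, and the other 8 from 25.4 to 187 CPM. Likeness to the sum, here and below, can thus come from either part. Of 11241 protein-coding genes with a mean of at least 10 CPM, those most like the summed cone level by Pearson's r over the 12 libraries were Eefsec (0.946, Spearman 0.846), Birc2 (0.886, Spearman 0.839), Hspa5 (0.883, Spearman 0.762), Cacna1h (0.882, Spearman 0.830) and Frat2 (0.874, Spearman 0.573). They are the top of a ranking of many genes over few libraries, which share groups and depth, and are given as a description.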

How the data were processed

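Estimated counts per gene and TPM per transcript were taken from the deposited tables. Tools named in the submitters' processing notes are kallisto 0.45.0 and edgeR 3.28, and the build is mm10; settings and annotation release were not given in the sources. The authors' gene table holds estimated counts, not normalized between libraries. The authors' transcript table holds TPM, since its columns sum to the fixed total of that unit, although its title speaks of counts. The authors' scaled signal per gene was not used. Estimated counts were rounded and analysed in R 4.3.3 with edgeR 4.0.16 (TMM scaling, filterByExpr with a minimum count of 10, 1 quasi-likelihood fit over 12 libraries, Benjamini-Hochberg adjustment over 20267 genes). The code was tested on simulated data. SE is the log2 fold change divided by the root of the F statistic, and 95% intervals are ± 1.96 SE. A fold against a group without counts is a bound: the pooled CPM of the other group against 3 counts over that group. It leaves out the spread among libraries. Alternatives were DESeq2 1.42.0, limma 3.58.1 (voom), other scalings and filters, a replicate block, and leaving out libraries. Gene positions and transcript classes are those of GENCODE on GRCm38, and the positions equal the deposited ones. All 10 genes were named in each comparison. The genes and lists were chosen with earlier results of these data known. For likeness, the 5 protein-coding genes with the highest Pearson correlation of log2(CPM + 1) were named. The 7 lists of other genes are from general knowledge of the retina. Genes of the rod and partner lists were named where they passed a test or, after their values were seen, had an unadjusted p under 0.05 (rods). Some single genes of these lists are not reported here. PCR copies are not independent molecules, so bounds cover counting error only.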

Additional observations from a re-analysis of the deposited data

Results flagged for a closer look

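For Opn1sw and Cngb3 the 3 libraries with a Csnk2a1 construct lay on opposite sides of their controls in the 2 arms, above them all with knockdown and below them all with overexpression. For Cngb3 the difference of the effects came to -5.37 in log2 units (SE 2.00; adjusted p = 0.493 in edgeR, 0.0985 in DESeq2). For Opn1sw the fitted difference was -17.03 (adjusted p = 0.305 in edgeR, 1.94e-04 in DESeq2); its size depends on the prior count, because a group in each arm has no count, and is no bound. Neither passed the edgeR test of the difference itself, and DESeq2 called Opn1sw.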

How the results depend on the processing

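Of 36 fold changes of single cone genes, 689 alternative values were computed: 662 kept direction and call, 3 were newly past the threshold (Opn1sw, with DESeq2 in overexpression and in the difference of the effects, and without a filter in the latter, adjusted p = 0.0161), 0 lost a call and 24 changed sign, in 10 fold changes. Counts of genes past the threshold for knockdown, overexpression, the difference of the effects and the 2 controls were 0, 20, 4 and 14. Without a filter they were 93, 111, 137 and 71, with DESeq2 183, 253, 208 and 69. Limma voom gave 2 for knockdown, 37 for overexpression and 1 for the difference. The difference gave 2 with RLE factors and 2 with at least 50 counts in 3 libraries, and overexpression 6 in a fit of its own 6 libraries. Cone genes past the threshold were 1 for overexpression (DESeq2) and 1 for the difference (DESeq2, and no filter). Leaving out 1 library gave 0 to 4 genes for knockdown (4 without pcDNA4c mCsnk2a1 1, 2 without shRNA Control 3 or pcDNA4c mCsnk2a1 3, 1 without shRNA Control 2, pcDNA4c mCsnk2a1 2 or pcDNA4c Control 2), 14 to 35 for overexpression (35 without pcDNA4c mCsnk2a1 1) and 2 to 16 for the difference (16 without pcDNA4c mCsnk2a1 1, 9 without shRNA mCsnk2a1 2, 7 without shRNA Control 1, 2 without pcDNA4c Control 1).

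Changes of sign were these. Between the controls Pde6c was 0.052 with RLE factors, 0.052 with DESeq2 and 0.15 with limma voom, and Cnga3 0.074 with RLE factors, 0.075 with DESeq2 and 0.019 with at least 50 counts. With 1 library left out, Pde6h ran from -1.81 to 0.22, Gnb3 from -0.54 to 0.078, Pde6c from -1.27 to 0.16 and Cnga3 from -0.28 to 1.89 for knockdown. Arr3 ran from -7.35 to 1.65 for overexpression, -8.46 to 0.55 for the difference and -7.44 to 1.15 between controls, where Cnga3 ran from -0.35 to 0.19, Pde6c from -0.58 to 0.52 and Pde6h from -0.59 to 0.013. RLE factors moved the median of all genes by 0.13 between the controls and 0.16 for the difference, and library size alone by -0.19 for knockdown and -0.14 for overexpression.

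Same-numbered libraries did not deviate together (correlations of -0.04 to 0.04 over 18 pairs), so no pairing by number was seen. Libraries of the same group had rank correlations of only 0.52 to 0.69, so a weak pairing could be missed. A replicate block gave 1 gene for knockdown and 9 for the difference, 0 cone genes in each contrast, and 0.72 for Arr3 with overexpression.

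The log2 ratio of summed levels was -0.059 in TPM and 0.61 as a median over genes for knockdown, 0.68 and -2.41 for overexpression, and 1.06 in TPM between controls. Gnb3 and Gngt2 held 84.9% of the summed TPM on average, and 69.6% of the summed CPM. Cone over rod was 3.21%, 5.57%, 3.90% and 7.50% in CPM for shRNA mCsnk2a1, shRNA Control, pcDNA4c mCsnk2a1 and pcDNA4c Control. The filter of 50 counts kept 5 of the 10 genes. Values of under 50 counts limit what can be seen for most cone genes. The cause was not tested for the other changes.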
